A study of Mus musculus with 3 samples.

Results

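The hair bundle of cochlear hair cells is built and held by unconventional myosins and by the proteins of Usher syndrome, and 9 genes of this group were followed here among the 32285 genes measured: Myo6, Myo7a, Myo15, Myo3a, Myo3b, Ush1c, Whrn, Adgrv1 and Clrn1. The members were chosen by their function, with earlier results of these data known, and taken by gene symbol. All 9 were found, and their unique molecular identifiers (UMIs, 1 per captured RNA molecule) were counted in barcodes with 200 to 6000 genes and at most 15% mitochondrial UMIs. The data came from dissociated cochlear tissue of C57/B6 mice with no transgene or treatment named, as 1 library at postnatal day 14 (P14) and 2 libraries at postnatal day 28 (P28). Each library pooled 14 cochleae of 7 mice, so the spread between libraries is one between pools and no mouse can be told from another. The bony wall was taken off during dissection and some epithelium of the basal turn was lost with it, so hair cells came mostly from the mid-cochlear and apical turns.

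The filter kept 1662 of 2513 barcodes at P14, 5651 of 11948 in P28 replicate 1 and 7065 of 18196 in P28 replicate 2, with 7432047, 24596587 and 23300859 UMIs. The kept cells held 79.8%, 72.9% and 67.3% of the UMIs of the members. The libraries shared 10 to 54 barcodes in pairs, of which 4 to 10 were kept in both. Cells were clustered without the members and named from other genes. OHC-like cells (outer hair cells, 277, 365 and 284 in the order P14, P28 replicate 1, P28 replicate 2, used throughout) carried Ocm at 31352, 17146 and 17484 CPM (millionths of all UMIs of the class in that library) and Slc26a5, the motor protein prestin, at 2026, 532 and 653 CPM. IHC-like cells (inner hair cells, 60, 113 and 76) carried Otof, needed for transmitter release, at 3328, 3046 and 2935 CPM and Slc17a8, the vesicular glutamate transporter, at 1593, 1681 and 1852 CPM. In the IHC-like cells Slc26a5 was at 4.0, 0 and 1.7 CPM and Ocm at 151, 270 and 323 CPM. OHC-like cells in turn carried Otof at a mean of 467 CPM and Slc17a8 at 77.7 CPM over the 2 P28 libraries. In the P14 OHC-like cluster of 193 cells Otof was at 22.1 CPM. The median UMIs per cell were 6510, 5244 and 3752.5 in OHC-like cells and 1025.5, 9310 and 8007.5 in IHC-like cells, so the IHC-like cells of P14 were far shallower than those of P28.

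Myosins are motors that walk on or anchor to actin. Myosin VI, alone in its superfamily, moves toward the minus end and acts at the base of the stereocilia, the actin protrusions of the bundle. Myosin VIIa and the scaffold harmonin, the product of Ush1c, belong to the complex that holds the tip links, the filaments that open the transduction channels. Myosin XV, the product of Myo15, carries whirlin (Whrn) to stereocilia tips, where they set elongation. The class III myosins of Myo3a and Myo3b are motors with a kinase domain that carry espins to the tips. Adgrv1 encodes a very large adhesion receptor of the ankle links between stereocilia, bound by whirlin, and Clrn1 encodes clarin 1, a membrane protein of the bundle and synapse. Loss of most of these genes causes deafness, and of Myo7a, Ush1c, Whrn, Adgrv1 and Clrn1 also retinal degeneration as Usher syndrome.

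On mouse build GRCm38, GENCODE M21 placed Myo6 at chr9:80165031-80311729 (plus strand), Myo7a at chr7:98051060-98119524 (minus), Myo15 at chr11:60469339-60528369 (plus), Myo3a at chr2:22227503-22618252 (plus) and Myo3b at chr2:70039126-70429198 (plus). The same annotation placed Ush1c at chr7:46195350-46238503 (minus), Whrn at chr4:63414910-63495991 (minus), Adgrv1 at chr13:81095068-81633154 (minus) and Clrn1 at chr3:58844028-58885340 (minus). Exons of Myo3b overlapped those of Gm13631 on the same strand, so reads there cannot be assigned to 1 gene with certainty. Exons of Ush1c overlapped those of Gm9860 on the opposite strand, and whether the counting used strand is not given in the sources used here. The UMIs came from 3′ ends, 1 tag per molecule, and no level was scaled to transcript length, so levels are compared for 1 gene between cells and the order of different genes is given only as CPM.

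Of the 9 members, 8 were higher in OHC-like cells than in all cells other than hair cells, and the same 8 were higher in IHC-like cells. Myo3b had too few UMIs for a test. Over all genes tested, 25.6% were called higher and 31.4% lower in OHC-like cells, and 12.7% were called higher and 24.9% lower in IHC-like cells. The median log2 fold change of the 8 tested members was 5.14 in OHC-like and 4.43 in IHC-like cells, beside -0.06 and -0.28 over all genes tested. The calls are from edgeR's quasi-likelihood test on UMI sums of 3 libraries with the library as a block, at a Benjamini-Hochberg adjusted p threshold of 0.05 over all genes. Standard errors (SE) were derived as the absolute log2 fold change divided by the square root of the test's F statistic. Under an alternative that kept only genes with 10 UMIs in every sum, Myo3a, Adgrv1 and Clrn1 could no longer be tested and the remaining 5 stayed higher.

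Myo6 had the highest CPM of the members in both hair cell classes. OHC-like cells held 1568, 1569 and 1550 CPM and IHC-like cells 1620, 1402 and 1319 CPM, and other cells held 150, 222 and 246 CPM. The 3 OHC-like values lay close together and all hair cell values were above all others. The log2 fold change against other cells was 3.11 ± 0.20 (SE) in OHC-like cells (adjusted p = 0.00123) and 2.59 ± 0.26 in IHC-like cells (adjusted p = 0.000471). Much of Myo6 lay outside hair cells, with 19.2%, 47.3% and 64.1% of its UMIs in cells of other classes, which made up more of the P28 libraries. For Whrn these shares were 23.0%, 40.2% and 53.7%.

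The level of Myo7a in OHC-like cells was 196, 332 and 292 CPM. IHC-like cells were much the same, with 210, 338 and 303 CPM, and the rest of the cells held 11.7, 8.46 and 7.22 CPM. In both hair cell classes the P14 library was the lowest. Against other cells the log2 fold change was 5.07 ± 0.34 in OHC-like cells (adjusted p = 0.00125) and 4.77 ± 0.32 in IHC-like cells (adjusted p = 0.000122).

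In OHC-like cells Myo15 was at 346, 376 and 340 CPM, more than the 131, 143 and 104 CPM of IHC-like cells, and other cells held 21, 33 and 29 UMIs in all. Of the UMIs of Myo15, 92.3%, 84.4% and 83.8% lay in OHC-like cells, and 3.0%, 3.0% and 5.2% lay outside hair cells. Its log2 fold change was 7.62 ± 0.41 in OHC-like cells (adjusted p = 0.000862) and 5.78 ± 0.35 in IHC-like cells (adjusted p = 8.56e-05).

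The class III myosins were rare. Myo3a had 49, 40 and 24 UMIs in OHC-like cells (26.1, 16.2 and 17.3 CPM), 43, 41 and 17 UMIs in IHC-like cells (170, 42.3 and 28.6 CPM) and 2, 3 and 6 UMIs in all other cells together. It was nearly absent outside hair cells, and the IHC-like level at P14 stood apart from the others. The fitted log2 fold change was 6.35 ± 0.35 in OHC-like cells (adjusted p = 0.000885) and 7.46 ± 0.42 in IHC-like cells (adjusted p = 6.96e-05), values that rest on the few UMIs of the other cells. Myo3b had 6, 3 and 0 UMIs in OHC-like cells and 0 UMIs in IHC-like cells of every library, where the exact Poisson 95% intervals reach 14.6, 3.81 and 6.20 CPM. All 6 of its UMIs at P14 lay in 1 OHC-like cluster of 48 cells.

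For Ush1c the levels were 357, 369 and 364 CPM in OHC-like cells, 503, 435 and 446 CPM in IHC-like cells and 32.8, 28.8 and 25.6 CPM in other cells. Its 3 OHC-like values were among the steadiest of the set. Within P14, however, OHC-like cells under 3000 UMIs held 709 CPM and deeper ones 342 CPM. Shallower cells were the higher side in every other class and library too. In IHC-like cells of P28 replicate 1 they held 909 CPM and deeper ones 416 CPM. In the remaining groups the counting intervals overlapped. A separate P14 OHC-like cluster of 36 cells, at a median of 1114.5 UMIs, held 808 CPM. Its Ocm stood at 8519 CPM, beside 33482 CPM in the P14 cluster of 193 cells, where Ush1c was at 370 CPM. This shallow cluster of 36 cells was the only nucleus-like one among the hair cells. Nucleus-like means over 5% of UMIs from Malat1 and under 5% from ribosomal protein genes. In P28 replicate 1, an IHC-like cluster of 28 cells, at a median of 1012.5 UMIs, held Ush1c at 1063 and Myo7a at 718 CPM. The deeper IHC-like cluster of 85 cells held them at 412 and 324 CPM. Depth and cluster were not told apart. The log2 fold change of Ush1c was 3.81 ± 0.15 in OHC-like cells (adjusted p = 0.000471) and 3.75 ± 0.21 in IHC-like cells (adjusted p = 6.39e-05).

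Whrn was low in OHC-like cells, at 13.3, 20.3 and 23.8 CPM, and stood at 127, 125 and 121 CPM in IHC-like cells and 3.21, 5.44 and 5.72 CPM in other cells. The 2 hair cell classes did not overlap. OHC-like cells also carried some Otof at P28, and the part of IHC-like RNA in their Whrn level was not tested. The log2 fold change was 2.14 ± 0.22 in OHC-like cells (adjusted p = 0.00319), the smallest of the tested members there, and 4.42 ± 0.26 in IHC-like cells (adjusted p = 7.39e-05).

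Adgrv1 had 53, 43 and 17 UMIs in OHC-like cells (28.2, 17.4 and 12.3 CPM) and 2, 12 and 8 UMIs in IHC-like cells (7.92, 12.4 and 13.5 CPM), beside 2, 7 and 14 UMIs in all other cells. The log2 fold change was 5.31 ± 0.47 in OHC-like cells (adjusted p = 0.00235) and 4.45 ± 0.52 in IHC-like cells (adjusted p = 0.000948). The level of Clrn1 was 117, 220 and 185 CPM in OHC-like cells, 131, 119 and 89.1 CPM in IHC-like cells and 1.32, 8.27 and 7.50 CPM in other cells. Its log2 fold change was 5.21 ± 0.40 in OHC-like cells (adjusted p = 0.0018) and 4.02 ± 0.48 in IHC-like cells (adjusted p = 0.00101).

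The number of members with a UMI was counted in each cell, and co-occurrence beyond what level and depth give was not tested. The median OHC-like cell held a UMI of 4, 5 and 4 of the 9 members and the median IHC-like cell of 2, 5 and 5, while the median other cell held none. Among cells with at least 1000 UMIs, thinned to that number, the median was 2 members in both hair cell classes of every library and 0 in other cells. This kept 260 of 277, 363 of 365 and 284 of 284 OHC-like cells, 31 of 60, 99 of 113 and 72 of 76 IHC-like cells and 1008 of 1325, 4662 of 5173 and 5990 of 6705 other cells. Together the members took 2655, 2922 and 2785 CPM in OHC-like cells, 2900, 2618 and 2423 CPM in IHC-like cells and 203, 275 and 295 CPM in other cells.

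**Figure D1:**
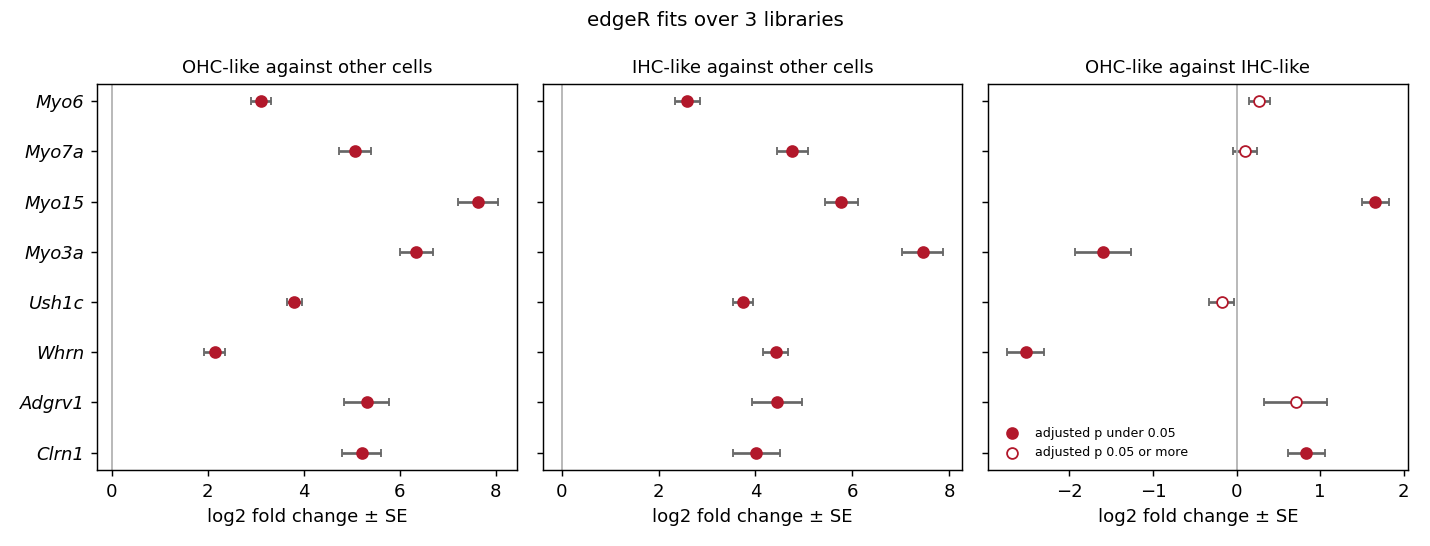
Fitted log2 fold changes of the 8 testable members with standard errors, for OHC-like against other cells, IHC-like against other cells and OHC-like against IHC-like. All 16 values against other cells are above 0, and between the hair cell classes Myo15 (1.66) and Clrn1 (0.84) lie above 0 and Whrn (-2.52) and Myo3a (-1.60) below it among those that passed the test.

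Between the hair cell classes, 4 of the 8 tested members differed: Myo15 and Clrn1 were higher in OHC-like cells, and Whrn and Myo3a were higher in IHC-like cells. Over all genes tested, 17.3% were called higher and 18.1% lower in OHC-like than in IHC-like cells. The median log2 fold change of the tested members was 0.19, beside 0.06 over all genes. Myo15 and whirlin, motor and cargo of 1 complex, thus stood on opposite sides. Myo15 was 2.65, 2.62 and 3.26 times as high in OHC-like cells by CPM (log2 fold change 1.66 ± 0.16, edgeR adjusted p = 2.5e-05). Whrn was 9.51, 6.17 and 5.09 times as high in IHC-like cells by CPM (log2 fold change of OHC-like over IHC-like -2.52 ± 0.22, adjusted p = 1.17e-05). Both calls held under every alternative tried, though the value of Myo15 fell to 0.92 (adjusted p = 0.0275) with at most 3000 genes and 15000 UMIs per cell.

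Myo3a was 6.52, 2.61 and 1.65 times as high in IHC-like cells by CPM (log2 fold change -1.60 ± 0.34, adjusted p = 0.00407), highest at P14, and it was -1.04 (adjusted p = 0.000643) without the P14 library. Without the library block the value was -1.71 and the adjusted p rose to 0.12. Clrn1 was the least firm of the 4, at 0.84 ± 0.22 (adjusted p = 0.0142). By CPM it was 1.86 and 2.07 times as high in OHC-like cells at P28, but 0.893 times at P14. Its call was lost in 5 of the alternatives, with a log2 fold change of 0.96 (adjusted p = 0.0514) with at most 3000 genes and 15000 UMIs per cell, 0.74 (adjusted p = 0.0802) with DESeq2, 0.77 (adjusted p = 0.104) without the library block, 0.63 (adjusted p = 0.214) without P28 replicate 1 and 0.60 (adjusted p = 0.199) without P28 replicate 2.

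The other 4 did not pass the test. The log2 fold change of OHC-like over IHC-like cells was 0.27 ± 0.13 for Myo6 (adjusted p = 0.132), 0.10 ± 0.15 for Myo7a (adjusted p = 0.631), -0.18 ± 0.14 for Ush1c (adjusted p = 0.369) and 0.71 ± 0.38 for Adgrv1 (adjusted p = 0.179). For Myo7a the sign depended on the scaling: its CPM was lower in OHC-like cells in all 3 libraries, and the TMM scaling of the test moved the median gene by 0.16. Myo6 passed without the P14 library, at 0.31 (adjusted p = 3.86e-06). By CPM, before that scaling, its log2 ratios in the P28 libraries were 0.16 and 0.23.

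Promoter sequences are shown for the 3 members that differed most between hair cell classes and whose upstream window holds none of their own exons: Myo15, higher in OHC-like cells, and Whrn and Myo3a, higher in IHC-like cells. Each is the 250 bases before the RefSeq start on GRCm38.p6, 5′ to 3′ on the strand of the gene. Capitals mark matches to CAGNTG (an E-box of the kind bound by basic helix-loop-helix factors such as Atoh1) or GTTGCC (a core of RFX factor sites), searched on both strands. The windows are chr11:60469089-60469338 (plus strand) for Myo15, chr4:63495992-63496241 (minus) for Whrn and chr2:22227253-22227502 (plus) for Myo3a.
Myo15: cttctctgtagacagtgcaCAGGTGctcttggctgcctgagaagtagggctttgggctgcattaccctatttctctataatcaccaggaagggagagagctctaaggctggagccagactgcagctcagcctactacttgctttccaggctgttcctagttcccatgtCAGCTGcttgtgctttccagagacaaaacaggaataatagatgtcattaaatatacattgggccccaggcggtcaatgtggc
Whrn: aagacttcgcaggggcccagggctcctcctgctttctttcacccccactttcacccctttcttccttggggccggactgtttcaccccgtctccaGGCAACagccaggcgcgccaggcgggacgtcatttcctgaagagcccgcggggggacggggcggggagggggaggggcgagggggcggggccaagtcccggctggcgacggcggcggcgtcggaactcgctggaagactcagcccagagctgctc
Myo3a: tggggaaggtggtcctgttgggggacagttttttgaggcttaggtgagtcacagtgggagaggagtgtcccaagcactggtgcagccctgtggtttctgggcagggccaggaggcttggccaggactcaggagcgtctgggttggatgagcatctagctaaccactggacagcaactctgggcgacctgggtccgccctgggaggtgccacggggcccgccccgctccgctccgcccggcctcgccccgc

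The Myo15 window held 2 E-boxes, starting 231 and 82 bases before the gene's start, and no other motif searched. The Whrn window held 1 RFX core, 155 bases before the start, shown as its reverse complement, and the Myo3a window held none. Of 32851 promoter windows of the same length, 44.8% held CAGNTG and 10.4% held GTTGCC, while ATTAAT (a core of POU4 factor sites, 4.39%) and TATAAA (the TATA box, 12.4%) were found in none of these 3. A match is a run of letters and says nothing of binding. The GC content was 49.6% for Myo15, 69.6% for Whrn and 66% for Myo3a, beside a median of 52.4% over all windows.

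Outside the hair cells, the classes were compared with each other, each against the mean of the other non-hair classes, for the 5 members with enough UMIs (Myo6, Myo7a, Ush1c, Whrn and Clrn1) in 12 classes. Of these 60 pairs of member and class, 12 were called higher and 8 lower, beside 15.3% and 5.74% of all gene and class pairs. The clearest was Ush1c in DC/PC-like cells (Deiters' and pillar cells, which support the outer hair cells), at 202, 191 and 165 CPM from 87, 64 and 27 UMIs (log2 fold change 4.39 ± 0.27, edgeR adjusted p = 1.29e-13). The level that hair cell RNA in this class would give, scaled from its UMIs of Ocm, Slc26a5, Otof and Slc17a8, was 5.06, 14.2 and 10.2 CPM. In hair cells Ocm was by far the highest of these genes, so the scaling follows mainly RNA of OHC-like cells. The part of hair cell RNA in the levels measured was not tested in any class. Ush1c was also higher in ISC/HeC/OSC-like cells (inner sulcus, Hensen's and outer sulcus cells), at 26.6, 62.6 and 65.3 CPM (2.49 ± 0.22, adjusted p = 2.28e-10). Within them it reached 170 and 120 CPM in 1 P28 cluster of 168 and 314 cells, and in an unnamed P28 cluster of 288 and 342 cells led by Slitrk6, Otog and Sox2 it stood at 132 and 145 CPM. In neither of these clusters was Myo15 above 1.91 CPM. Red blood cell-like cells held 1, 5 and 14 UMIs of Ush1c, or 3.38, 15.2 and 28.3 CPM (1.97 ± 0.54, adjusted p = 0.00808), where hair cell RNA would give 1.26, 1.71 and 0.538 CPM. Ush1c was lower in tympanic border cell-like (-2.85 ± 0.51, adjusted p = 7.5e-05), spiral ganglion neuron-like (SGN, the neurons that carry the hair cell signal to the brain; -2.29 ± 0.47, adjusted p = 0.000408), fibroblast-like (-2.00 ± 0.46, adjusted p = 0.00149) and fibrocyte-like cells (-1.46 ± 0.46, adjusted p = 0.0214).

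Clrn1 was higher in the SGN-like cells, which were named at P28 alone. They held 163 and 149 UMIs, or 47.6 and 46.0 CPM, and 30.8% and 36.1% of the neurons carried a UMI at median depths of 9116 and 12656.5 UMIs (log2 fold change 5.88 ± 0.40, adjusted p = 6.92e-12). Hair cell RNA would give 0.841 and 0.502 CPM by the same scaling. These neurons held most of the UMIs of Clrn1 outside hair cells, which were 175 and 160 at P28. Clrn1 thus passed the filter on low counts largely through the class where it was high. The adjusted p adds little to the counts for that reason. Clrn1 was also called higher in DC/PC-like cells (2.84 ± 0.86, adjusted p = 0.017), from 3, 2 and 2 UMIs (6.97, 5.96 and 12.2 CPM), where hair cell RNA would give 1.60, 7.01 and 4.11 CPM. The part of such RNA in that call was not tested.

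Myo6 was called higher in 4 non-hair classes and lower in 2. It stood at 426 and 441 CPM in tympanic border cell-like cells (1.48 ± 0.32, adjusted p = 0.0008), at 384 and 383 CPM in fibroblast-like cells (1.29 ± 0.33, adjusted p = 0.0037), at 429, 292 and 281 CPM in fibrocyte-like cells (1.18 ± 0.29, adjusted p = 0.00294) and at 209, 319 and 299 CPM in DC/PC-like cells (0.83 ± 0.30, adjusted p = 0.0497). The last of these calls was lost with RLE in place of TMM scaling (adjusted p = 0.0597). It was lower in SGN-like cells, at 74.2 and 78.1 CPM (-1.23 ± 0.41, adjusted p = 0.03), and in B cell-like cells, with 6, 0 and 8 UMIs (-2.24 ± 0.51, adjusted p = 0.00121).

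Myo7a was higher in macrophage-like cells, at 34.3, 40.5 and 24.4 CPM from 12, 29 and 19 UMIs (2.26 ± 0.38, adjusted p = 2.73e-05). Hair cell RNA would give 6.57, 0.546 and 1.71 CPM there, with Ocm at 959 CPM in the macrophage-like cells of P14. Myo7a was also higher in ISC/HeC/OSC-like cells, at 12.2, 13.0 and 13.8 CPM (0.94 ± 0.32, adjusted p = 0.034; adjusted p = 0.0848 with RLE scaling), and it was lower in tympanic border cell-like cells (-1.77 ± 0.55, adjusted p = 0.0187). Whrn was higher in fibrocyte-like cells, with 2, 35 and 34 UMIs or 8.58, 23.5 and 17.4 CPM (1.89 ± 0.38, edgeR adjusted p = 0.00029). Hair cell RNA would give 0.0458, 0.164 and 0.147 CPM there. As that scaling rests mostly on Ocm, RNA from IHC-like cells, where Whrn was higher, could be understated. In SGN-like cells Whrn was lower, with 2 and 3 UMIs (-2.93 ± 0.64, adjusted p = 0.000948). Myo3b, too rare to test, had 0, 8 and 13 UMIs in Reissner's membrane-like cells (0, 6.99 and 13.9 CPM), of 0, 9 and 16 UMIs in all cells other than hair cells.

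Leaving out a P28 library left fewer classes and members to test. Without P28 replicate 1, Ush1c and Myo6 were tested in 9 classes and Ush1c in DC/PC-like cells was called (4.36, adjusted p = 0.000395), while Ush1c in ISC/HeC/OSC-like cells (2.08, adjusted p = 0.0982) and Myo6 in fibrocyte-like cells (1.49, adjusted p = 0.0766) were not. Without P28 replicate 2, Ush1c, Myo6 and Myo7a were tested in 8 classes. The 3 higher calls were then Ush1c in DC/PC-like cells (3.77, adjusted p = 1.39e-05), Ush1c in ISC/HeC/OSC-like cells (1.41, adjusted p = 0.0438) and Myo6 in fibrocyte-like cells (1.88, adjusted p = 0.0143), and Myo7a in macrophage-like cells was at 1.85 (adjusted p = 0.084).

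**Figure D2:**
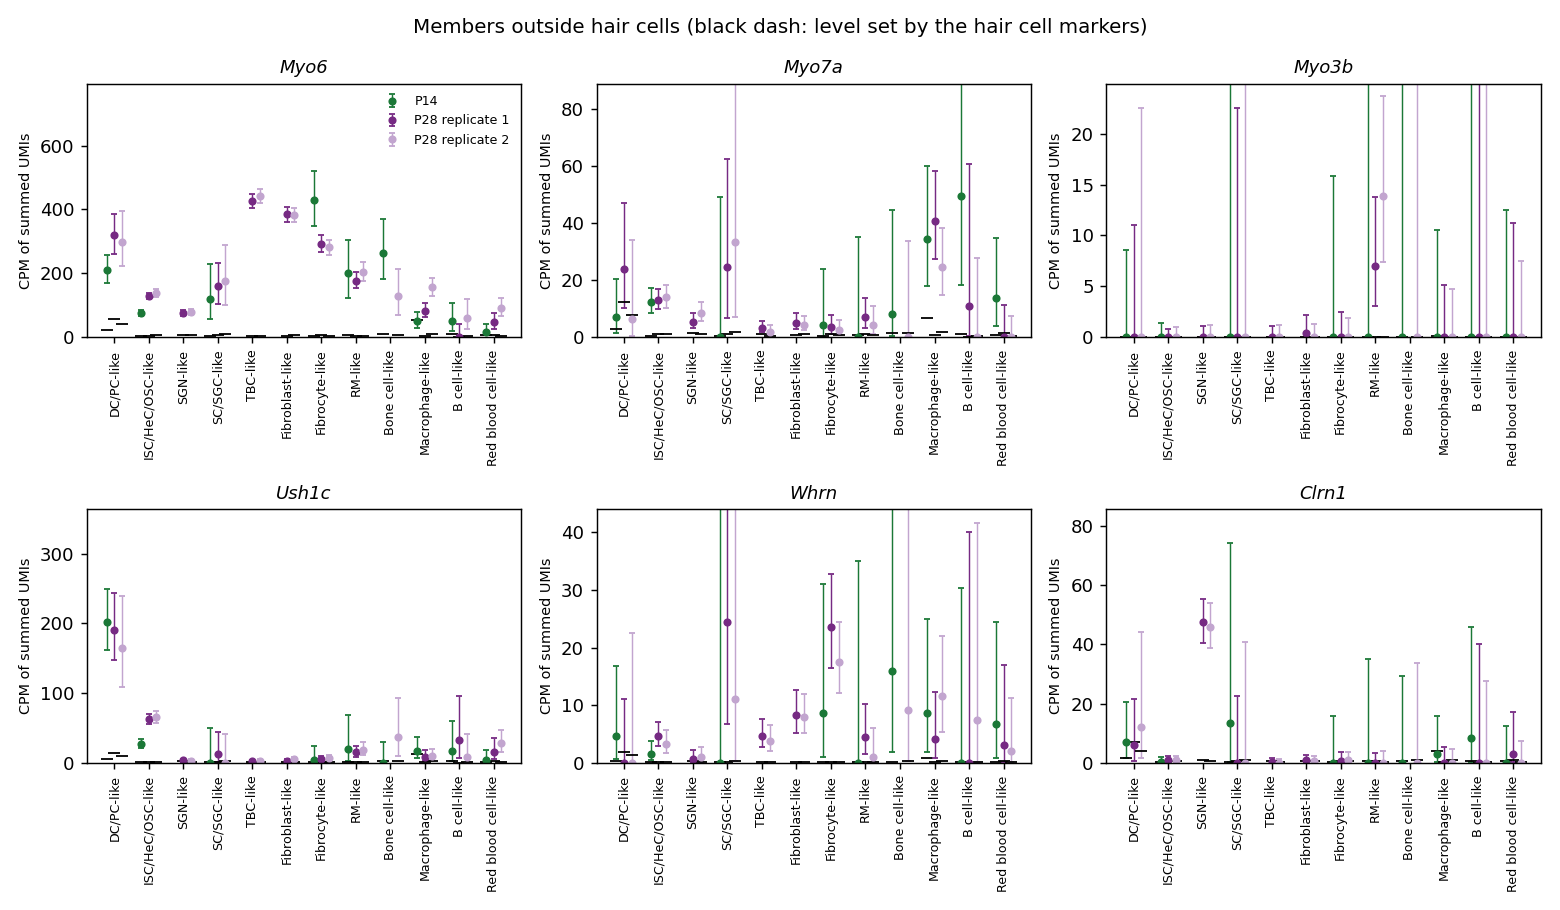
CPM of the members in non-hair classes, 1 point per library with exact Poisson 95% intervals (counting error only; some run past the axis), beside the level that hair cell RNA would give. Ush1c in DC/PC-like cells (165 to 202 CPM) and Clrn1 in SGN-like cells (46.0 and 47.6 CPM) lie above that level, which rests mostly on Ocm.

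Between P14 and P28 there was 1 library on the P14 side, no test was run, and a difference was called where P14 differed at least 1.5-fold from both P28 libraries with a P14 counting interval that overlapped neither of theirs. Of the members with at least 30 UMIs, 1 of 8 in OHC-like cells and 1 of 7 in IHC-like cells were called. In OHC-like cells 12.5% of all genes were called higher and 7.33% lower at P28, and in IHC-like cells 7.17% higher and 6.12% lower. The median gene moved by 0.17 (log2) in OHC-like and 0.20 in IHC-like cells toward P28.

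The called members were Clrn1 and Myo3a. Clrn1 in OHC-like cells was 1.89 and 1.58 times as high at P28 as at P14, from 219, 544 and 256 UMIs. This call was lost in 4 of the 7 alternatives: with at most 3000 genes and 15000 UMIs per cell, with up to 30% mitochondrial UMIs, with the mean over cells of CPM and with thinning to 1000 UMIs. In IHC-like cells it was 0.908 and 0.682 times as high and not called. Myo3a in IHC-like cells was 0.248 and 0.168 times as high at P28. This call was lost with the mean over cells of CPM, and Myo3a fell under the 30 UMIs asked for with at most 3000 genes and 15000 UMIs per cell and with thinning, so that 4 of the 7 alternatives kept it. In OHC-like cells its ratios were 0.62 and 0.663, with intervals that overlapped. With up to 30% mitochondrial UMIs, Myo3a was called lower at P28 in OHC-like cells too. The IHC-like cells of P14 were shallow, and the depth was looked at directly. Among cells with at least 3000 UMIs, Myo3a stood at 178 CPM (95% interval 125 to 246) in 16 P14 cells, at 38.7 (27.1 to 53.6) in 82 cells of P28 replicate 1 and at 27.6 (15.8 to 44.8) in 65 cells of P28 replicate 2. Among shallower cells it stood at 134, 130 and 68.0 CPM from 6, 5 and 1 UMIs, where no order can be read. With cells thinned to 1000 UMIs, 16.1%, 3.03% and 5.56% of IHC-like cells carried a Myo3a UMI, from 5, 3 and 4 UMIs.

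Myo7a came close to a call, at 1.69 and 1.49 times in OHC-like and 1.61 and 1.44 times in IHC-like cells. It was called in OHC-like cells with cells thinned to 1000 UMIs, with the genes of mitochondria, ribosomal proteins and haemoglobin left out of the total, and without the 5% of cells with the highest doublet score, and in IHC-like cells with at most 3000 genes per cell and with the mean over cells of CPM. By the CPM of summed UMIs, Myo6, Myo15 and Ush1c moved little. In OHC-like cells their ratios were 1.00 and 0.989, 1.08 and 0.983, and 1.03 and 1.02. In IHC-like cells they were 0.865 and 0.814, 1.10 and 0.798, and 0.865 and 0.886. With OHC-like cells thinned to 1000 UMIs, Ush1c stood at 485, 361 and 338 CPM and Myo15 at 412, 336 and 352 CPM. Myo6 stood at 1573, 1567 and 1377 CPM, and none of these was called. In the shallow P14 OHC-like cluster of 36 cells, Ush1c stood at 808 CPM and Myo15 at 589 CPM. The part of this cluster in the thinned values was not tested.

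Of 48 other genes of the pathway in 8 lists, 40 were tested in OHC-like against other cells, of which 18 were higher and 13 lower. These are 45% and 32.5%, beside 25.6% and 31.4% of all genes. In IHC-like cells 12 of 38 were higher and 9 lower (31.6% and 23.7%, beside 12.7% and 24.9%). Between the hair cell classes OHC-like cells were the higher side for 9 of 30 and the lower for 5 (30% and 16.7%, beside 17.3% and 18.1%). The shares called lower were thus near those over all genes. All 5 tested genes of the other Usher proteins were higher in OHC-like cells. They were the tip link cadherins Cdh23 (log2 fold change 6.04) and Pcdh15 (1.84), Cib2 (5.76), the scaffold Ush1g (4.81) and Pdzd7 (3.89), a partner of whirlin at the ankle links. In IHC-like cells Cdh23 (5.40), Cib2 (4.88), Ush1g (3.33) and Pcdh15 (1.79) were higher. Pdzd7 alone of them had not passed in IHC-like cells (0.29, adjusted p = 0.803), and it was 3.21 higher in OHC-like than in IHC-like cells (adjusted p = 0.000159). Cib2 was 0.64 higher (adjusted p = 0.0169).

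Of the tip partners of myosin XV and whirlin, Gpsm2 was higher in both hair cell classes (4.08 and 4.67) and lower in OHC-like than in IHC-like cells (-0.79, adjusted p = 0.00428), whereas Eps8 was higher in OHC-like than in IHC-like cells (0.88, adjusted p = 0.0117) and lower in IHC-like than in other cells (-0.67, adjusted p = 0.0477). The 3 partners of the class III myosins were higher in both classes: Espn at 6.09 and 4.87, Espnl at 4.69 and 3.47 and Morn4 at 2.42 and 2.49. Espn was higher in OHC-like than in IHC-like cells (0.98, adjusted p = 0.000358), opposite in sign to Myo3a. At the stereocilia base, Ptprq was higher in both classes (7.70 and 7.29), Clic5 (3.73 and 2.09) likewise, and Rdx in OHC-like cells (1.16), with Clic5 (1.40) and Rdx (0.90) higher in OHC-like than in IHC-like cells.

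The cargo adaptors of myosin VI went both ways. Gipc3 was higher in both hair cell classes (8.0 and 6.83) and higher in OHC-like than in IHC-like cells (0.96, adjusted p = 0.00103), and Tom1 was higher in both (1.08 and 1.66) and lower in OHC-like than in IHC-like cells (-0.88). Tax1bp1 was higher in OHC-like cells (0.43, adjusted p = 0.0494). Optn and Dab2 were lower, with 0, 1 and 2 and 0, 12 and 13 UMIs in OHC-like cells, and in IHC-like cells too, with 1, 3 and 2 and 0, 1 and 0 UMIs. Of 20 other unconventional myosins 15 were tested in OHC-like cells, of which 2 were higher, Myo1h (6.14) and Myo1d (1.24), and 9 were lower, among them Myo5a (-3.66) and Myo1c (-3.26). Their median log2 fold change was -1.93, against 5.71 for the 4 tested myosins of the set. Myo1f had 0 UMIs in OHC-like cells of all 3 libraries. In IHC-like cells none of 14 was higher and 4 were lower, among them Myo16 with 0 UMIs in each library, Myo5a (-4.20) and Myo1c (-1.54). The shares over all genes there were 12.7% higher and 24.9% lower. Myo1h was 2.80 higher (adjusted p = 0.00218) and Myo10 (-2.36, adjusted p = 7.62e-05) and Myo9a (-0.73, adjusted p = 0.0371) were lower in OHC-like than in IHC-like cells. Among the conventional myosins Myh14 was lower in OHC-like than in other (-1.49) and IHC-like cells (-1.72, adjusted p = 0.000843), and Myh9 lower in both hair cell classes than in other cells (-0.71 and -1.46). Myh10 was lower in IHC-like than in other cells (-1.18) and higher in OHC-like than in IHC-like cells (0.89). Of the clarin relatives, Clrn2 had 20, 2 and 5 UMIs in OHC-like cells, 4, 6 and 1 in IHC-like cells and none in other cells. Between the hair cell classes Clrn2 did not pass (-0.77, edgeR adjusted p = 0.449). Clrn3 had no UMI in hair cells.

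By the same rule between ages, 29 of these 48 genes held 30 UMIs in OHC-like cells, of which 2 were called higher and 5 lower at P28, and 24 in IHC-like cells, of which 2 were higher and 3 lower (over all genes, 12.5% and 7.33% in OHC-like and 7.17% and 6.12% in IHC-like cells). Pcdh15 (2.05 and 2.20 times) and Morn4 (2.02 and 1.60 times) were higher at P28 in OHC-like cells, and Espnl, Ptprq, Rdx, Gipc1 and Myo1h were lower. In IHC-like cells Cib2 (0.526 and 0.519 times), Espn (0.64 and 0.627 times) and Ptprq (0.317 and 0.245 times) were lower and Gnai3 and Myo10 higher.

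The genes whose level over 40 class and library sums was most like that of a member, by Pearson's r of log2(CPM + 10) among 13798 genes, are given as a description; the sums share libraries and depth. The highest r were with Nbeal1 for Myo6 (0.894), Grxcr2 for Myo7a (0.911), Fcrlb for Myo3a (0.977), Tmprss3 for Ush1c (0.927), Slc17a8 for Whrn (0.882), Pjvk for Adgrv1 (0.910) and Elmod1 for Clrn1 (0.969). For Myo15 they were Pou4f3 (0.979), a transcription factor of hair cells, Dytn (0.978) and Loxhd1 (0.978). Among the next 2 places were Jup and Nbea for Myo6, Kcp for Myo7a, Cdkl4 and Lrrc52 for Myo3a, Lrrc10b and Bdnf for Ush1c, Ripor3 and Osbpl11 for Whrn, Cdh15 and Loxhd1 for Adgrv1, and Ap3b2 and Cdh23 for Clrn1. Slc17a8, the gene nearest to Whrn, was itself a naming marker of IHC-like cells, the hair cell class where Whrn was higher. Among the members the closest pairs were Myo15 with Clrn1 (0.900) and Myo7a with Myo15 (0.892), and Myo3b stayed between -0.12 and 0.05 with all others.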

How the data were processed

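The authors deposited, for each of 3 libraries, raw UMI counts per gene and barcode, not normalized, made with the 10x 3′ kit v3.1 and Cell Ranger (6.0.1 with mm10 in the submitters' processing notes, 5.0.1 in the matrix header). Barcodes outside 200 to 6000 genes or above 15% mt- UMIs were left out. The cell totals differ from those of the study. Clusters (Seurat 5.3.0, 2000 variable genes, 30 components, resolution 1, 51 clusters in all; P14 alone, P28 libraries integrated) were made without the members and listed genes and named from markers. UMI sums per class and library were tested in edgeR 4.0.16 (TMM, filterByExpr, quasi-likelihood, library term) in R 4.3.3, after a check on simulated data; P14 against P28 had no test. Scrublet (scanpy 1.11.5) marked 4 of 14378 cells at its own threshold, so no doublets were removed, and leaving out the 5% with the highest score was an alternative chosen after seeing the data. Others were DESeq2 1.42.0, cell filters, count filters, resolution, integration, thinning to 1000 UMIs and leaving out libraries. The genes named were all members, up to 4 called genes per list and comparison with the largest change, and the 3 nearest genes; Myo1d, Clrn3 and the genes called between ages were added after their values were seen, and some genes that the rule gives are not reported here. The members and lists were chosen with earlier results of these data known. Replicates are pools of mice, intervals cover counting error only, and the numbers do not pair samples.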

Additional observations from a re-analysis of the deposited data

Results flagged for a closer look

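The CPM ratios of 5 members had opposite signs in 2 groups under the same contrast, often within counting error, and none of these differences was tested. By CPM, Clrn1 was lower in OHC-like than in IHC-like cells at P14 (log2 ratio -0.16) and higher in both P28 libraries (0.89 and 1.05), a difference of 1.14. The counting intervals at P14 overlapped, and by the mean over cells of CPM the OHC-like level was the higher at P14 too (130 and 118 CPM). Myo6 did the same on a smaller scale (-0.05 at P14, 0.16 and 0.23 at P28, a difference of 0.245), and its intervals at P14 overlapped too. From P14 to P28, Whrn had a mean log2 ratio of 0.72 in OHC-like and -0.04 in IHC-like cells, a difference of 0.764. Ush1c had 0.04 and -0.19, a difference of 0.23. For Whrn and Ush1c the P14 counting interval overlapped that of each P28 library in both classes. Adgrv1 had -0.95 and 0.70, a difference of -1.66, with 2, 12 and 8 UMIs in IHC-like cells, where the intervals overlapped.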

How the results depend on the processing

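Of the 140 recomputed counts and main values, 111 stayed within 1.5 times the reported one and 29 moved. These are counts and have no direction. No fold change of a member that was called in the main setting or the alternative changed sign, and sign changes without a call were counted as kept. Among single fold changes of members in the hair cell comparisons and their P28 mean levels, 330 kept their call or value. Of the rest, 6 lost the call, 1 gained it and 8 moved. Calls of single members between ages and in single non-hair classes are not in these counts, and several were lost as given above. With 10 UMIs in every sum, fewer genes were tested: members called fell from 8 to 5 in both OHC-like and IHC-like against other cells, all genes called from 7880 to 4426, from 5093 to 1856 and, between the hair cell classes, from 3637 to 1678, and pathway genes from 31 to 15 and from 21 to 13. With at most 3000 genes and 15000 UMIs per cell, all genes called came to 3078 in IHC-like cells and 1009 between the hair cell classes, pathway genes between them to 4 instead of 14, and members called between ages to 1 instead of 2. The mean over cells of CPM and thinning to 1000 UMIs gave 1 each between ages; in all 3 settings this was Myo7a, and neither Clrn1 nor Myo3a was called. DESeq2 called 2236 genes between the hair cell classes. Without the replicate block the calls there were 2 members instead of 4, 1722 genes and 9 pathway genes. The causes were not tested. Leaving out each library in turn gave 2681 to 10455 genes and 18 to 35 pathway genes in OHC-like cells, 1773 to 7776 and 13 to 28 in IHC-like cells, 1512 to 4920 and 6 to 19 with 3 to 5 members between the hair cell classes, and 1 to 14 member and class pairs outside hair cells (without P28 replicate 1, 1 pair). The P14 and P28 libraries are pools of different mice and were not paired. The hair cell comparisons are paired within libraries, with the library that gives both sums as the block. Depth limits Myo3b, Adgrv1 and Myo3a most.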
